A study of Mus musculus with 28 samples.

Results

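The collagen alpha chain genes were followed through the reprogramming of mouse embryonic fibroblasts (MEFs), with and without a p38 inhibitor. They were taken as every row of the RNA-seq table whose gene name is Col, a number, a and a number, which gave 44 of the 50600 genes. The cells were MEFs labelled WT that carried the OG2 (Oct4-GFP) reporter of pluripotency, and the induced cells received Sox2, Klf4 and Oct4 by retrovirus in the chemically defined medium iCD1. The inhibitor, p38i, was SB203580, a small molecule that blocks p38 MAP kinase. There were 28 libraries in 14 groups of 2: untreated MEFs, p38i-treated MEFs, and induced cells under DMSO (the solvent control), p38i or pre-p38i, each sampled on days 1, 3, 5 and 7. In p38i the inhibitor was present during induction, and in pre-p38i it was given beforehand. The labels name no DMSO for untreated MEFs, the cultures were mixtures of cells at different stages of reprogramming, and nothing states that the 2 libraries of a group came from separate cultures, so p-values measure the spread between these libraries, which may be technical.

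Collagens are the main structural proteins of the extracellular matrix. Each molecule is a triple helix of 3 alpha chains, which can be products of 1 gene or of several. Fibrillar chains assemble into the banded fibrils of connective tissue, type IV chains into the network of basement membranes, and type VI chains into beaded filaments around cells. The FACITs (fibril-associated collagens with interrupted triple helices) sit on the surface of fibrils, and the multiplexins belong to basement membrane zones. Fibroblasts are the classical source of type I collagen, and leaving the fibroblast state is an early step of reprogramming.

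The values are whole numbers, read as TPM (a gene's share of its library's transcripts after division by its length, scaled to a common total) that the authors rounded down, since they add up to between 991287 and 992537 in each library. TPM keeps no trace of read number, so the depth of the libraries is unknown and their counting error cannot be computed. The genes listed at 1 or more numbered from 12454 to 14170 in a library. Of 10 fibroblast markers, 9 were detected in untreated MEFs (Lum was at 0), with a summed value of 11256 and 11769. That sum was 2826 and 2930 in DMSO on day 7, 4134 and 4218 in p38i and 2226 and 2303 in pre-p38i. Most of these day 7 sums was Vim, with 1977 and 2076 in DMSO, 2904 and 2840 in p38i and 1680 and 1590 in pre-p38i. The median log2 fold change of the 10 markers from DMSO was 0.27 in p38i and -0.73 in pre-p38i on that day. In these bulk libraries, fewer cells of a type and less RNA per cell cannot be told apart.

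Of the 44 genes, 26 averaged 1 or more across the 28 libraries and entered the test. They were 9 of 11 fibrillar genes, 4 of 6 type IV genes, 4 of 6 beaded-filament genes, 4 of 9 FACIT genes, both multiplexin genes, 1 of 3 hexagonal-network genes, the anchoring-fibril gene Col7a1 and 1 of 2 others (Col28a1). None of the 4 transmembrane collagen genes was tested. Among the 18 genes that were not, 6 were at 0 in every library (Col4a3, Col4a4, Col6a6, Col8a2, Col13a1 and Col19a1), 7 never exceeded 1, and 5 reached 2 or more (Col17a1, Col25a1, Col10a1, Col26a1 and Col20a1). The means just inside the limit were 1.07 for Col27a1 and 1.11 for Col14a1, and those just outside were 0.786 for Col17a1 and 0.643 for Col25a1. Col17a1, the hemidesmosomal collagen of epithelia, was at 0 in both MEF groups, at 3 and 3 in DMSO on day 7, at 3 and 2 in pre-p38i on day 7 and at 1 and 1 in p38i on day 7.

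**Figure D1:**
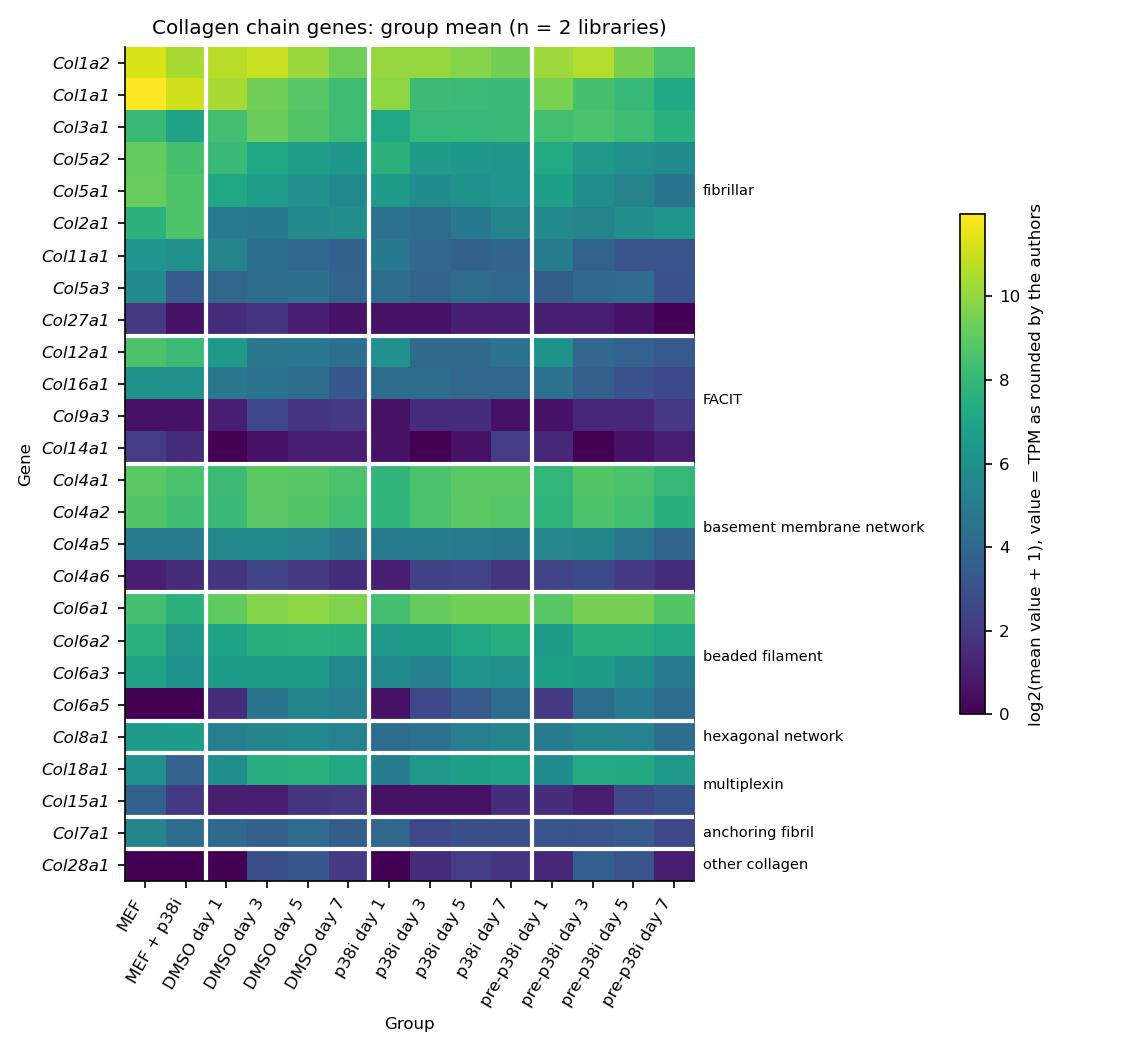
Mean level of the 26 tested collagen chain genes (rows, by structural class) in the 14 groups (columns), as log2(mean value + 1) of 2 libraries, on a color scale from 0. Col1a1 is brightest in untreated MEFs (mean 4015.5), and Col6a5 and Col28a1 are at 0 in both MEF groups.

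Sequences before the RefSeq start of 4 genes are shown because the genes behind them took different courses, described after them: Col1a2 and Col5a1 were highest in MEFs, Col3a1 on day 3 and Col6a1 on day 5 of the DMSO course. They come from the RefSeq promoters of GRCm38.p6, which hold 35 of the 44 genes in 38 entries. Each is printed 5′ to 3′ on the strand of its gene, restricted to bases before the RefSeq start that lie in no annotated exon. They span chr6:4505370-4505492 (+) for Col1a2, chr2:27886175-27886424 (+) for Col5a1, chr1:45311288-45311537 (+) for Col3a1 and chr10:76726169-76726294 (-) for Col6a1. The expression table starts Col1a2 further upstream than RefSeq does, so by its annotation the Col1a2 stretch lies in an intron. On either strand, capitals mark a match to the CCAAT motif, the GC-rich GGGCGG motif or the AP-1 motif TGANTCA.
Col1a2: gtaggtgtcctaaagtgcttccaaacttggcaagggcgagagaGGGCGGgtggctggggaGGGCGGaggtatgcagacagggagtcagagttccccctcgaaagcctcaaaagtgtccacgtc
Col5a1: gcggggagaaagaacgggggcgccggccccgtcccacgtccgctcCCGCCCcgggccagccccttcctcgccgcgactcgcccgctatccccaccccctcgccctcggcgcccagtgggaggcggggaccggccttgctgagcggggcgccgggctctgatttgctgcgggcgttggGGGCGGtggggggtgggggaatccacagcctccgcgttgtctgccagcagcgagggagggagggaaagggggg
Col3a1: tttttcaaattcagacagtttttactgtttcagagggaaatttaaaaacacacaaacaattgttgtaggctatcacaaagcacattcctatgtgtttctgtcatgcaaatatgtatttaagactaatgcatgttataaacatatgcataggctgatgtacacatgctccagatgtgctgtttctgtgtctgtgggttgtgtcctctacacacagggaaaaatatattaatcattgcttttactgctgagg
Col6a1: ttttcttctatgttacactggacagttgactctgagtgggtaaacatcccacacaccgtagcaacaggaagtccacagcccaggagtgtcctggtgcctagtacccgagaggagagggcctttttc

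In the printed stretches Col1a2 and Col5a1 held 2 matches to GGGCGG each, and Col3a1 and Col6a1 held no match to any of the 3 motifs. Over the full 250 bases, GGGCGG was in 22 of the 38 collagen entries and in 32.7% of all 32851 promoters. CCAAT was in 13 of 38, against 33.8% of all promoters, and TGANTCA in 1 of 38 (Col6a1, in the exonic bases that are not printed), against 6.75%. In the printed stretches the only matches were to GGGCGG, so none overlapped another motif, and a match is a description of letters, not of a bound factor.

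The collagen chain genes took a larger share of the library total in untreated MEFs than in induced cells. Their summed value was 1.07% and 1.05% of the library total in the 2 untreated MEF libraries and 0.661% and 0.662% in the MEFs given p38i. After induction in DMSO, the day 1 libraries had 0.57% and 0.53%, those of day 3 0.643% and 0.588%, those of day 5 0.462% and 0.522%, and those of day 7 0.344% and 0.36%. The loss came mainly from type I collagen. Col1a1 and Col1a2 together took 0.671% and 0.647% in MEFs and 0.0931% and 0.0982% in DMSO on day 7, while the other 42 genes took 0.401% and 0.406% and then 0.251% and 0.261%. The sums are descriptions and were not tested.

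**Figure D2:**
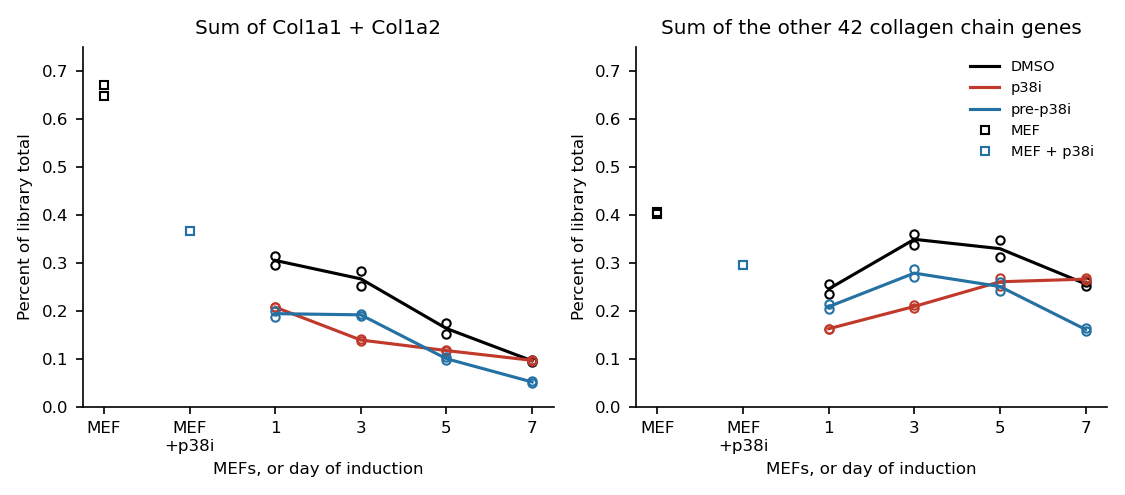
Summed value of the type I chain genes (left) and of the other 42 collagen chain genes (right) as a percent of the library total, by day of induction, with the MEF groups at the left of each panel. Points are single libraries and lines join means of 2; type I falls from 0.659% in MEFs to 0.0957% in DMSO on day 7, and the pre-p38i libraries end lowest in both panels.

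Between untreated MEFs and day 1 of induction in DMSO, 16 of the 26 genes fell and 5 rose, where 18.9% of all 13230 genes tested fell and 36.6% rose (limma on log2(value + 1), Benjamini-Hochberg adjusted p-value under 0.05, used for every call). The median log2 fold change was -0.71 for the collagen genes and 0.14 for all genes. Per the paper's methods, MEFs were kept in medium with serum, and cells were infected and moved to iCD1 before day 1. Medium, infection and the factors therefore cannot be told apart in any comparison of MEFs with induced cells. From day 1 to day 7 in DMSO, 10 fell and 9 rose, where 26.1% of all genes fell and 28.4% rose. By group mean along the DMSO course, 15 genes were highest in MEFs, 6 on day 3, 5 on day 5, and none on day 1 or day 7.

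Most fibrillar genes were highest in MEFs. Col1a1 (chr11:94936224-94953042, + strand), which encodes the chain present in 2 copies in type I collagen, stood at 4164 and 3867 in MEFs, 1392 and 1318 on day 1, 719 and 620 on day 3, 418 and 507 on day 5 and lastly 290 and 319 on day 7. Each day lay below the one before in both libraries, and the mean in MEFs was 13.2 times that on day 7. The day 1 change was -1.57 on the log2 scale (SE 0.08, limma adjusted p = 3.09e-12), and the change from day 1 to day 7 was -2.15 (SE 0.08, adjusted p = 3.6e-14). Col5a1 (chr2:27886425-28039514, +), whose chain nucleates thin fibrils, went from 590 and 585 to 44 and 49, a 12.6-fold difference of means. Col5a2 (chr1:45374321-45503282, -), its usual partner, went from 543 and 578 to 81 and 83. The steepest loss among the well-expressed genes was that of the FACIT gene Col12a1 (chr9:79598991-79718831, -), from 380 and 397 to 20 and 20, a 19.4-fold difference.

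Other genes that fell on day 1 differed in what followed. Col2a1 (chr15:97975602-98004695, -), best known as the chain of cartilage fibrils, had 211 and 198 in MEFs and 29 and 30 on day 1 (log2 fold change -2.75, SE 0.08, adjusted p = 4.19e-16). It then rose to 60 and 57 by day 7 (0.96, SE 0.08, adjusted p = 7.38e-09). Summed values of 7 cartilage markers lay between 1 and 14 in all libraries, with Comp and Chad at 0 in every group. Col15a1, a multiplexin gene, fell from 11 and 13 to 1 and 1 on day 1 and had 3 and 3 on day 7, a late change whose call was lost without any 1 of the 4 libraries. Col14a1, a FACIT gene, had 3 and 4 in MEFs and was listed at 0 on day 1.

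A second set was higher in induced cells than in MEFs. Col6a1 (chr10:76708792-76726168, -), a chain of type VI filaments, stood at 345 and 331 in MEFs, 541 and 507 on day 1, 923 and 879 on day 3, 937 and 1018 on day 5 and lastly 789 and 801 on day 7. All induced DMSO libraries were above both MEF libraries, and the gain on day 1 was 0.63 on the log2 scale (SE 0.06, adjusted p = 9.71e-09). Col18a1 (chr10:77052178-77166548, -), whose product releases endostatin, had 62 and 66 in MEFs, 66 and 55 on day 1, and 193 and 202 on day 5. Its rise came after day 1, by 1.26 up to day 7 (SE 0.08, adjusted p = 3.54e-11). Col6a5 (chr9:105856078-105960643, -) was listed at 0 in MEFs and had 3 and 1 on day 1, 23 and 24 on day 3, 43 and 42 on day 5 and lastly 37 and 35 on day 7. Its transcripts share a stretch of 572 bases at 96.9% identity with Col6a6, which was at 0 in every library. Col28a1, a collagen with von Willebrand factor A domains, was listed at 0 in MEFs and on day 1 and had 6 and 7 on day 3, 8 and 9 on day 5 and lastly 3 and 3 on day 7.

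The common type IV genes and Col3a1 had their highest DMSO means on day 3. Col4a1 (chr8:11198423-11312826, -) and Col4a2 (chr8:11312805-11449287, +), which encode the chains of the common basement membrane network, had 481 and 482, and 431 and 406, in MEFs. On day 1 they fell to 302 and 281, and to 290 and 263, and on day 3 they were back at 508 and 468, and at 508 and 446. Col3a1 (chr1:45311538-45349706, +), the chain of the extensible fibrils of skin and vessels, rose from 247 and 284 to 341 and 320 on day 1, had 632 and 607 on day 3, and stood at 292 and 313 on day 7. The call for its rise on day 1 (log2 fold change 0.32, SE 0.08, adjusted p = 0.00177) was lost without MEF replicate 1. The X-linked pair Col4a5 and Col4a6 also rose on day 1, by 0.77 and 0.79 on the log2 scale, with Col4a6 at values of 1 to 6 in all libraries and its call lost under quantile normalization.

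**Figure D3:**
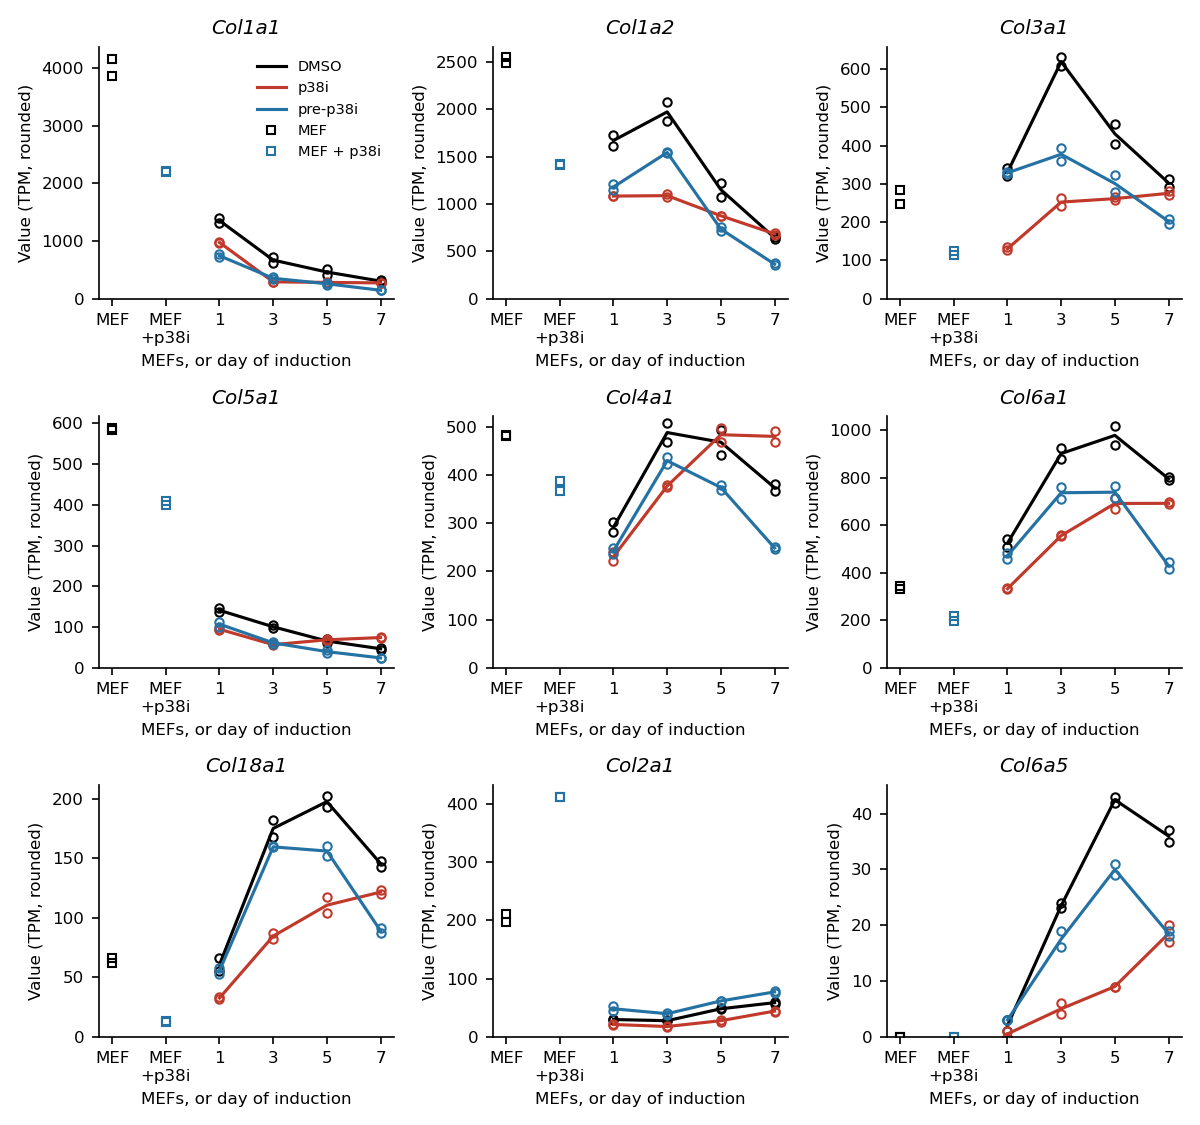
Value (TPM as rounded by the authors) of 9 collagen chain genes by day of induction, with a separate axis from 0 for each gene; points are single libraries, lines join means of 2, and squares are the MEF groups. Col1a1 and Col5a1 fall from the MEF level, Col3a1 peaks at 632 and 607 on day 3 in DMSO, and Col6a5 starts at 0.

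Because the chains of some genes assemble into 1 molecule, the ratio of partner genes was followed in every library, as a description. Ratios of some other pairs, such as the neighbors Col3a1 and Col5a2, were followed in the same way. Col1a1 over Col1a2, which pair as 2 to 1 in the type I molecule, was 1.67 and 1.52 in MEFs, 0.804 and 0.818 on day 1 in DMSO, 0.347 and 0.331 on day 3 and lastly 0.458 and 0.487 on day 7. Its range over the 28 libraries, 0.221 to 1.67, was 7.54-fold, and the lowest values were in pre-p38i on day 3. Col1a2 (chr6:4504814-4541544, +) stood at 2492 and 2549 in MEFs and still at 2075 and 1872 on day 3, when Col1a1 was at 719 and 620. Col4a1 over Col4a2 kept between 0.967 and 1.29 in all 28 libraries, a 1.33-fold range.

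These 2 genes lie head to head, and their RefSeq starts overlap by 22 bases at chr8:11312805-11312826, shown on the + strand because both genes start there, with a match to GGGCGG in capitals.
Col4a1 and Col4a2 starts: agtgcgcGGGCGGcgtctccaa

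Neighbors did not always keep their ratio. Col3a1 and Col5a2 lie 24614 bases apart on chromosome 1, on opposite strands, and Col3a1 over Col5a2 ran from 0.316 in MEFs given p38i to 4.67 in pre-p38i on day 5, a 14.8-fold range. Col6a1 and Col6a2 are 85161 bases apart on chromosome 10 and are read in the same direction, and their ratio ran from 1.65 to 6.22. In MEFs Col6a1 had 345 and 331 and Col6a2 (chr10:76595762-76623630, -) 209 and 189, and on day 5 in DMSO Col6a1 had 937 and 1018 and Col6a2 189 and 211. Col6a3 (chr1:90765923-90843971, -), the longest chain of the type VI filament, had 113 and 121 in MEFs and 41 and 52 on day 7.

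Over the 14 group means on the log2 scale, Col1a1 was most like Col5a2 (Pearson r = 0.99), Col12a1 most like Col11a1 (0.98), Col5a1 most like Col16a1 (0.97), Col4a1 most like Col4a2 (0.97) and Col6a1 most like Col18a1 (0.95). The least alike pair was Col11a1 and Col6a5 (-0.86). These are correlations over 14 groups that share a time course, given without a test.

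**Figure D4:**
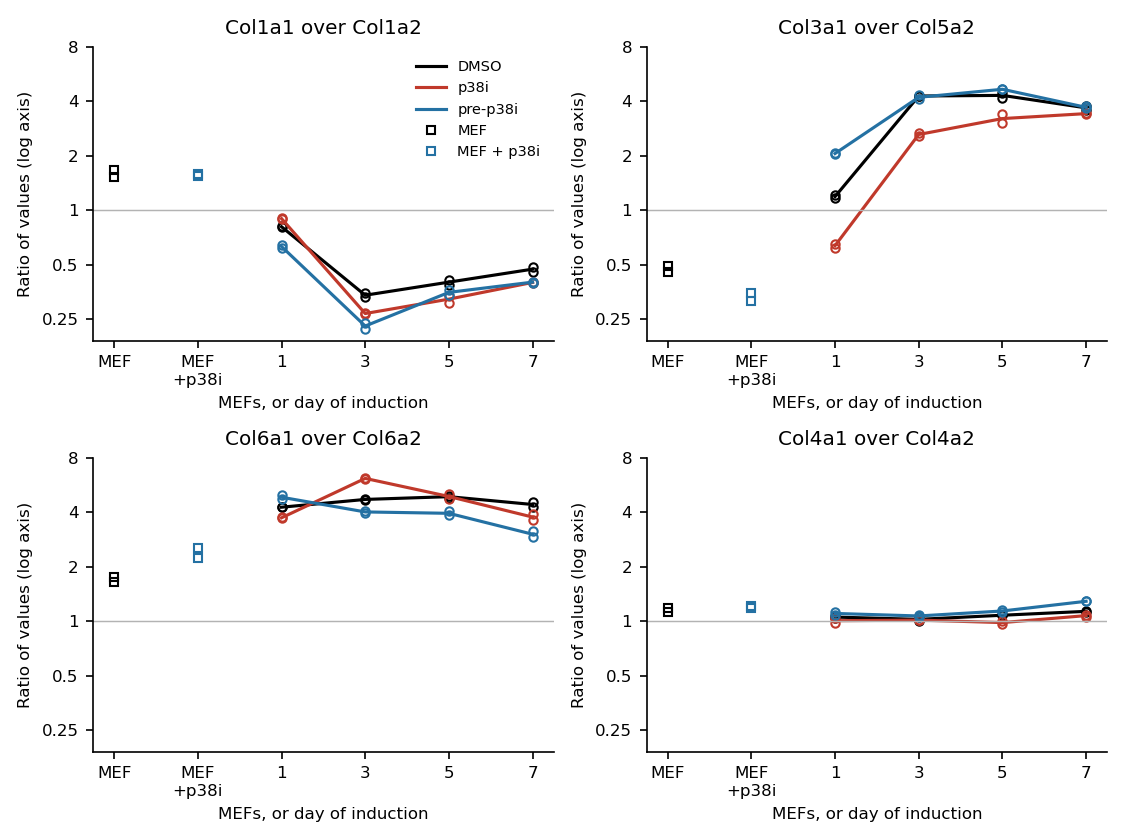
Ratio of the values of 4 pairs of collagen chain genes in each of the 28 libraries, on a log axis common to the panels, by day of induction with the MEF groups as squares. Col4a1 over Col4a2 stays between 0.967 and 1.29, whereas Col3a1 over Col5a2 ranges from 0.316 to 4.67.

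The first treatment question is what p38i did in MEFs. Of the 26 genes, 16 were lower and 2 higher in MEFs given p38i than in untreated MEFs, against 8.15% lower and 9.73% higher among all genes, with a median log2 fold change of -0.56 against 0. The largest loss was that of Col18a1, from 62 and 66 to 13 and 12 (-2.27, SE 0.08, adjusted p = 1.95e-13). Col5a3, a fibrillar type V chain gene, went from 48 and 51 to 10 and 10 (-2.20, SE 0.12, adjusted p = 2.3e-10). The 2 libraries of each group lay close together and the groups were far apart for both genes.

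The abundant chains moved less. Col1a1 went from 4164 and 3867 to 2200 and 2221 (-0.86, SE 0.08, adjusted p = 4.22e-07), and Col1a2 from 2492 and 2549 to 1428 and 1408 (-0.83). Their ratio was 1.59 ± 0.109 (SD, n = 2) without and 1.56 ± 0.026 with p38i. Col3a1 fell from 247 and 284 to 124 and 115, and Col6a2 from 209 and 189 to 85 and 88. The low genes Col15a1 (11 and 13 to 3 and 3, -1.70) and Col27a1 (2 and 4 to 1 and 0, -1.45) were also lower, Col15a1 losing its call with a pseudocount of 0.1 and Col27a1 with that pseudocount and without MEF replicate 2 of either group.

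Col2a1 went the other way, from 211 and 198 to 413 and 413 in MEFs given p38i (1.01, SE 0.08, adjusted p = 4.61e-08). Both treated libraries were above both untreated ones. The sum of the 7 cartilage markers was 12 to 14 without and 9 to 10 with the inhibitor (Hapln1, Comp, Chad and Matn1 at 0 in both). Among these markers, Acan went from 7 and 6 to 1 and 1, Sox9 from 6 and 5 to 8 and 7 (not called), and Matn3 stayed at 1 and 1. The other gene that rose, Col4a6 (1 and 1 to 2 and 2), lost its call without any 1 of the 4 libraries. Col8a1, Col4a5, Col11a1 and Col16a1 had log2 fold changes between -0.28 and 0.11 that did not pass the test. The sum of 10 macrophage markers was 302 to 318 in untreated MEFs and 213 to 216 with p38i. That of 10 fibroblast markers was 11256 and 11769 without and 9989 and 10204 with p38i. The largest part of the fibroblast sum was Vim (5943 and 5347 without, 5612 and 5721 with p38i). By count, 4 of the 10 fibroblast markers were lower with p38i and none higher (8.15% and 9.73% of all genes). The part of these markers in the collagen differences was not tested.

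In induced cells, p38i and pre-p38i are each set against the same DMSO libraries, so the 2 series of differences share their controls. With p38i present during induction, 18 of the 26 genes were lower on day 1 and none higher, where 12.6% of all genes were lower and 3.47% higher. On day 3, 21 were lower and none higher (16.2% and 5.22% of all genes), and on day 5, 16 were lower and none higher (18.7% and 7.87%). On day 7 the count was 4 lower and 5 higher (17.6% and 16.5%), close to the shares among all genes. The median log2 fold change was -0.51, -0.76, -0.39 and 0.1 on the 4 days, against -0.08, -0.08, -0.08 and 0 for all genes. The sum of 10 macrophage markers was 246 to 263 in p38i on day 3 (Csf1r at 0) against 429 to 442 in DMSO, and that of the 10 fibroblast markers was 5598 to 5750 against 5614 to 5923. Most of the fibroblast sum was Vim (4150 and 4072 against 3734 and 3522), and by count 7 of the 10 were lower and 1 higher on that day, with a median log2 fold change of -0.58. Their part in the collagen differences was not tested.

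Col3a1 lost most on day 1 under p38i, with 127 and 134 against 341 and 320 in DMSO (-1.33, SE 0.08, adjusted p = 7.67e-10). By day 7 it had 270 and 281 against 292 and 313 (-0.13, adjusted p = 0.204). The p38i course of Col3a1 thus lacked the day 3 maximum of DMSO, standing at 264 and 241 when DMSO stood at 632 and 607. Col6a3 and Col18a1 were also lower on day 1, with 53 and 50 against 104 and 93 (-0.92) and 33 and 32 against 66 and 55 (-0.87). Col6a5 had 1 and 0 against 3 and 1, a call lost without DMSO replicate 1 or p38i replicate 2.

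Col6a5 showed the largest differences on days 3 and 5. It had 6 and 4 in p38i against 23 and 24 in DMSO on day 3 (-2.05, SE 0.27, adjusted p = 1.36e-05) and 9 and 9 against 43 and 42 on day 5 (-2.12, SE 0.27, adjusted p = 7.82e-06). On day 7 it had 17 and 20 against 37 and 35, a call that was lost without DMSO replicate 1 or p38i replicate 1. Col28a1 was lower too, at 2 and 2 against 6 and 7 on day 3 and at 3 and 4 against 8 and 9 on day 5. Col1a1 was 297 and 287 against 719 and 620 on day 3 (-1.19, SE 0.08, adjusted p = 4.39e-09) and 270 and 277 against 290 and 319 on day 7 (-0.15, adjusted p = 0.173). Among the 4 genes with the largest losses on day 5 were 2 low ones, Col15a1 with 0 and 1 against 2 and 3 and Col7a1, the anchoring-fibril chain, with 8 and 5 against 15 and 19. The Col15a1 call was lost without DMSO replicate 2 or p38i replicate 1.

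On day 7 the genes above DMSO in p38i were Col16a1 (15 and 14 against 9 and 8, 0.71), Col5a1 (72 and 76 against 44 and 49, 0.66), Col6a3 (67 and 62 against 41 and 52, 0.47), Col4a2 (442 and 452 against 320 and 337, 0.44) and Col4a1 (469 and 491 against 366 and 381, 0.36). In each of them both p38i libraries were above both DMSO libraries. The Col6a3 call was lost without DMSO replicate 1 or p38i replicate 1. Lower were Col6a5, Col2a1 (45 and 43 against 60 and 57, -0.40), Col18a1 (120 and 123 against 143 and 148, -0.26) and Col6a1 (696 and 687 against 789 and 801, -0.20). The Col18a1 call was lost without DMSO replicate 2 or p38i replicate 1, and the Col6a1 call without DMSO replicate 2 or p38i replicate 2.

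Under pre-p38i the difference from DMSO was spread over all 4 days and was widest on the last. Lower and higher genes numbered 10 and 3 of 26 on day 1 (6.24% and 5.4% of all genes), 11 and 2 on day 3 (6.87% and 13.8%), 15 and 1 on day 5 (11.3% and 14.3%), and 20 and 2 on day 7 (14.5% and 15.4%). The median log2 fold change was -0.28, -0.32, -0.49 and -0.66, against 0, 0.07, 0.04 and 0.05 for all genes. The total of 13 calls on day 1 became 7 without DMSO replicate 1 and 6 without pre-p38i replicate 1. In pre-p38i the macrophage markers summed to 91 to 92 on day 1 and 86 to 87 on day 5, against 252 to 260 and 430 to 434 in DMSO. Of the 10 fibroblast markers, 5, 7, 9 and 10 were lower on the 4 days, and 1 was higher, on day 1. Their sum was 3775 to 3781 against 5614 to 5923 on day 3 and 2772 to 2863 against 3810 to 4178 on day 5. Among 7 tested epithelial markers, the higher ones numbered 0, 4, 4 and 6 on the 4 days, and 1 was lower, on day 1. The part of these markers in the collagen differences was not tested.

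Type I collagen was lower on every day. Col1a1 had 717 and 773 on day 1, 340 and 368 on day 3, 273 and 244 on day 5 and lastly 150 and 142 on day 7, with log2 fold changes from DMSO of -0.86, -0.91, -0.83 and -1.05 (adjusted p = 1.23e-06, 3.03e-07, 4.75e-07 and 1.16e-08, limma). Col1a2 had 1152 and 1209, 1535 and 1554, 752 and 718, and 377 and 352, with -0.50, -0.35, -0.64 and -0.82. Col5a2 followed with -0.80, -0.69, -0.62 and -0.58. No pre-p38i library reached a DMSO library of the same day for any of these 3 genes. Col7a1 had 7 and 8 against 18 and 12 on day 1 (-0.89), a call lost without DMSO replicate 1 or either pre-p38i library.

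The 2 abundant FACIT genes had some of the largest losses. Col16a1, a minor collagen at the surface of fibrils, had 10 and 13 against 25 and 22 on day 3 (-0.98) and 6 and 8 against 16 and 19 on day 5 (-1.22, SE 0.16, adjusted p = 1.58e-05). Col12a1 had 15 and 14 against 28 and 23 on day 3 (-0.77), 14 and 11 against 21 and 32 on day 5 (-1.01) and 10 and 8 against 20 and 20 on day 7 (-1.08, SE 0.15, adjusted p = 1.5e-05). The remaining members of the class, Col9a3 and Col14a1, had values of 0 to 8 and passed in neither direction on any day. Col9a3 shares 234 exonic bases with Tcfl5 on the opposite strand, and its values are uncertain because the strand setting of the counting is not stated.

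On day 7 Col8a1, the endothelial and vascular network collagen, had 20 and 18 against 38 and 38 (-0.97, SE 0.12, adjusted p = 3.5e-06), Col28a1 had 1 and 1 against 3 and 3 (-1.0), Col6a1 had 443 and 415 against 789 and 801 (-0.89, SE 0.06, adjusted p = 5.95e-10) and Col4a2 had 195 and 191 against 320 and 337 (-0.76). The 4 tested type VI genes passed as lower on that day, and 1 of them, Col6a2, on day 1. On day 7 the Col6a5 call was lost without any 1 of the 4 libraries and the Col6a3 call without DMSO replicate 2. Higher were Col15a1, with 7 and 7 against 3 and 3, whose call was lost without any 1 of the 4 libraries, and Col2a1.

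Col2a1 was the fibrillar gene called higher in pre-p38i. It had 44 and 52 against 29 and 30 on day 1, 38 and 41 against 27 and 28 on day 3, 62 and 61 against 47 and 49 on day 5, and 75 and 79 against 60 and 57 on day 7, with log2 fold changes of 0.68, 0.51, 0.35 and 0.39 (adjusted p = 2.1e-05, 0.000253, 0.00404 and 0.00148, limma). In p38i it was lower on each day, with -0.47, -0.63, -0.78 and -0.40. On no day did the libraries of the 3 conditions overlap for this gene, and the order was pre-p38i above DMSO above p38i. Col28a1 was also higher in pre-p38i on the first days, with 1 and 2 against a listed 0 on day 1 and 12 and 10 against 6 and 7 on day 3, the latter call being lost without any 1 of the 4 libraries. Col4a6 had 5 and 4 against 2 and 3 on day 1, a call lost without DMSO replicate 1 or pre-p38i replicate 1.

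**Figure D5:**
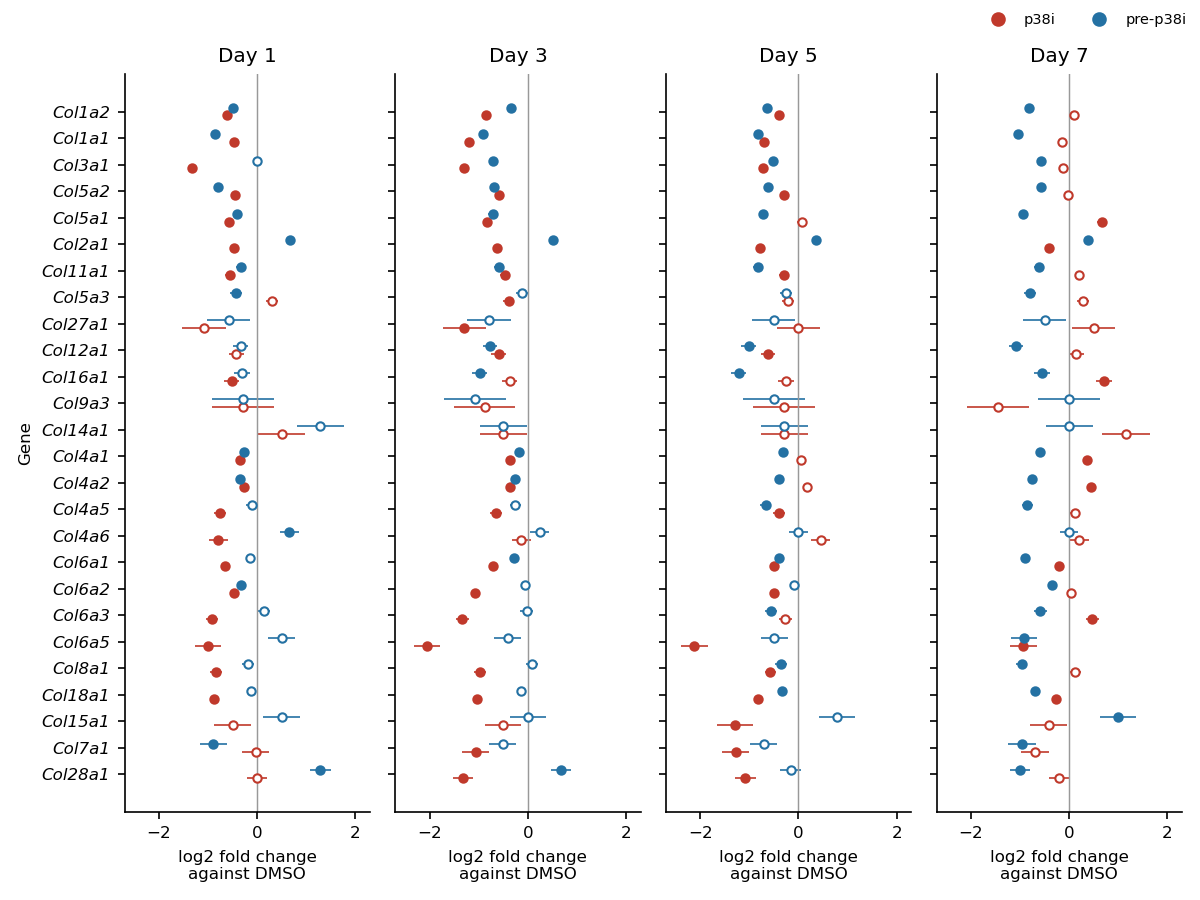
Log2 fold change against DMSO of the same day, on the log2(value + 1) scale, for the 26 tested collagen chain genes in p38i (red) and pre-p38i (blue), 2 libraries a group. Bars are limma standard errors and filled points have an adjusted p-value under 0.05; on day 7 p38i has 4 lower and 5 higher genes and pre-p38i 20 lower and 2 higher.

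The 2 treatments were compared directly on day 7. There 19 of the 26 genes were higher in p38i than in pre-p38i and 2 lower, where 24.8% of all genes were higher and 29.5% lower, with a median log2 fold change of 0.86 against -0.05. Col5a1 had 72 and 76 in p38i against 23 and 25 in pre-p38i (1.59, SE 0.09, adjusted p = 1.3e-11), Col16a1 15 and 14 against 6 and 5 (1.26), Col12a1 20 and 25 against 10 and 8 (1.23) and Col4a2 442 and 452 against 195 and 191 (1.21, SE 0.07, adjusted p = 2.8e-11). Lower in p38i were Col15a1 (2 and 2 against 7 and 7, -1.42, its call lost with a pseudocount of 0.1) and Col2a1 (45 and 43 against 75 and 79, -0.79). The summed collagen value was 0.359% and 0.367% of the total in p38i and 0.217% and 0.208% in pre-p38i. On the same day the sum of 8 epithelial markers was 201 to 220 in p38i (Cldn6 and Esrp1 at 0), 467 to 499 in DMSO and 914 to 959 in pre-p38i, and that of 10 macrophage markers was 197 to 224, 216 to 217 and 37 to 48 (Csf1r at 0 in pre-p38i). The largest part of the macrophage sum was Lyz2 in p38i and DMSO, with 135 and 113 against 98 and 109. By count, 5 of the 10 macrophage markers were lower and 1 higher in p38i than in DMSO (17.6% and 16.5% of all genes). Their median log2 fold change was -0.69. Sums of 7 osteoblast markers (100 to 103, 167 to 176 and 320 to 323) were nearly all Alpl, an alkaline phosphatase also high in pluripotent cells, with 95 and 97, 171 and 162, and 319 and 319. Dmp1, Phex and Sp7 were at 0 in all 3 groups, and Ibsp and Bglap at 0 in p38i and pre-p38i. Sums of 8 endothelial markers (65 to 70, 63, and 63 to 67) were nearly all Tek, with 67 and 61, 57 and 58, and 59 and 63. Tie1 and Emcn were at 0 in all 3 groups, Cdh5 in p38i and pre-p38i, Cldn5 in p38i and DMSO, and Pecam1 in p38i. The part of such cells in the collagen differences was not tested.

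Whether a treatment difference itself changed between day 1 and day 7 was tested as an interaction. The p38i difference moved upwards for 15 of the 26 genes and downwards for none, against 14.1% and 7.55% of all genes, and the pre-p38i difference moved downwards for 13 and upwards for none, against 9.43% and 7.25%. The medians were 0.64 and -0.40, against 0.09 and 0.05 for all genes. For Col3a1 the p38i difference went from -1.33 to -0.13, a change of 1.20 (SE 0.11, adjusted p = 3.46e-07), and the pre-p38i difference from -0.01 to -0.58, a change of -0.57 (SE 0.11, adjusted p = 0.00114). For Col6a1 the changes were 0.45 and -0.74. Both interactions rest on the same 4 DMSO libraries.

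A collagen chain must be hydroxylated, folded, exported, trimmed and cross-linked, and the genes for these steps were read from lists. Of 17 tested genes for chain modification and folding, 11 fell and 3 rose from MEFs to day 1 in DMSO (18.9% and 36.6% of all genes), and 15 fell and none rose from day 1 to day 7 (26.1% and 28.4%). Fkbp14, a prolyl isomerase of the endoplasmic reticulum, rose on day 1 from 31 and 33 to 110 and 103 (1.70, adjusted p = 1.89e-12). P4ha3, a subunit of collagen prolyl 4-hydroxylase, fell from 56 and 51 to 15 and 15 and then to 2 and 2. On day 7, 9 were higher and none lower in p38i than in DMSO (16.5% and 17.6% of all genes), and 1 was higher and 9 lower in pre-p38i (15.4% and 14.5%). The gene with the largest gain in p38i was P3h3, a homolog of the prolyl 3-hydroxylases, with 32 and 35 against 21 and 19 (0.72, adjusted p = 0.000512).

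All 5 lysyl oxidase genes, which cross-link collagen, fell between day 1 and day 7 in DMSO, as did 26.1% of all genes. Lox went from 1043 and 996 in MEFs to 359 and 349 on day 1 and 38 and 42 on day 7 (-3.12 from day 1 to day 7, adjusted p = 3.39e-18). In pre-p38i 4 of the 5 were lower than DMSO on day 7 (14.5% of all genes), and Lox had 13 and 14 (-1.50, adjusted p = 8.34e-13). In p38i 3 were higher and 1 lower (16.5% and 17.6% of all genes), with Loxl2 at 74 and 77 against 41 and 42 (0.85, adjusted p = 2.13e-08) and Loxl4 at 37 and 37 against 51 and 52 (-0.47).

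Of the 7 tested genes for the removal of propeptides, 6 were lower and none higher in pre-p38i on day 7 (14.5% and 15.4% of all genes), and 5 were higher and none lower in p38i (16.5% and 17.6%). The extreme was Adamts14, a procollagen N-proteinase, with 8 and 7 in DMSO, 26 and 28 in p38i (1.72, adjusted p = 4.12e-08) and 2 and 3 in pre-p38i (-1.29, adjusted p = 1.46e-06). Of the 6 genes for export, 4 were lower and 1 higher in MEFs given p38i (8.15% and 9.73% of all genes). On day 7, 2 were higher and none lower in p38i (16.5% and 17.6%), and 2 lower and none higher in pre-p38i (14.5% and 15.4%). Creb3l1, a transcription factor of the secretory pathway known to activate type I collagen genes in bone, was lower in MEFs given p38i (50 and 48 against 144 and 134, -1.48, adjusted p = 1.08e-08). It was also lower in pre-p38i on all 4 days (-0.97, -0.87, -0.60 and -0.66), and in p38i it was lower on days 1 and 3 (-0.61 and -0.63) and higher on day 7 (0.49, adjusted p = 0.00194). Mia2 was left out of that list because its symbol stands on 2 rows.

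Among 6 tested receptors and uptake genes, 3 were higher in p38i on day 7 (16.5% of all genes) and 3 lower in pre-p38i (14.5%), none being called the other way. Mrc2, the endocytic collagen receptor, had 34 and 34 in DMSO, 45 and 50 in p38i (0.47) and 15 and 14 in pre-p38i (-1.18, adjusted p = 7.58e-09). Itga11, the integrin subunit of fibroblasts that binds fibrillar collagen, had 48 and 48 in MEFs, 26 and 28 in MEFs given p38i and 4 and 4 on day 1 in DMSO, and was listed at 0 from day 3. Of 6 small proteoglycans that bind fibrils, 1 was higher and 1 lower in p38i on day 7, about the shares of all genes (16.5% and 17.6%), Dcn with 225 and 231 against 104 and 102 (1.14, adjusted p = 2.36e-09) and Bgn with 79 and 92 against 122 and 133 (-0.57, adjusted p = 1.85e-06). In pre-p38i 4 were lower and none higher (14.5% and 15.4% of all genes), with Bgn at 44 and 41 (-1.56, adjusted p = 1.43e-12). Dcn was 7 and 7 in MEFs and 177 and 182 on day 1, while Lum, another of these proteoglycans, was listed at 0 in MEFs and had 19 and 21 on day 1.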

How the data were processed

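Per the labels, submitters' notes name bcl2fastq, Bowtie2 2.2.5, RSEM 1.3.0 and the builds hg38 and mm10. The deposited values are a score: whole numbers read as TPM that the authors rounded down, one per gene and library. Labels and methods differ on library kit, RNA extraction and MEF medium. Libraries of pluripotent lines were not used here.

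Values were compared as log2(value + 1) with limma 3.58.1 (lmFit, eBayes with a trend) in R 4.3.3, all 28 libraries in a single model, no replicate block, over 13230 genes averaging 1 or more. Fold changes on this scale understate those of low genes. Scripts were tested on simulated data. Replicate numbers did not pair libraries (correlations of deviations -0.0838 to 0.0874 over 91 pairs of groups).

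Coordinates are the table's (GRCm38); 43 of 44 match GENCODE M21. Shared sequence (95% identity over 200 bases) was sought with BLAST 2.17.0+, and plots made with matplotlib 3.10.9. Members and gene lists were chosen with earlier results of these data known. Named genes were drawn from the 2 highest per class, the partner chains and the 4 most changed called members each way per comparison. For other lists they were drawn from the most changed called gene each way. Not all of these are given with values in each comparison, for example Col6a3 in p38i on day 3. Other named genes were chosen after their values were seen. Alternatives were the pseudocount 0.1, a minimum mean of 5 or none, only the groups compared, a replicate block, quantile normalization, and leaving out each library.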

Additional observations from a re-analysis of the deposited data

Results flagged for a closer look

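The results set out here are changes in a treatment difference between day 1 and day 7, each tested by limma as a difference of differences on the log2 scale at an adjusted p-value under 0.05. The p38i difference from DMSO moved upwards for 15 genes: Col6a3 by 1.39, Col5a1 by 1.23, Col16a1 by 1.23, Col3a1 by 1.20, Col4a6 by 1.00, Col8a1 by 0.97, Col4a5 by 0.85, Col11a1 by 0.77, Col4a2 by 0.72, Col1a2 by 0.71, Col4a1 by 0.70, Col18a1 by 0.61, Col6a2 by 0.48, Col6a1 by 0.45 and Col5a2 by 0.41. The calls for Col4a6 and Col5a2 were lost without 1 library (DMSO day 1 replicate 2 or p38i day 7 replicate 2 for Col4a6, DMSO day 1 replicate 1 for Col5a2).

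The pre-p38i difference moved downwards for 13 genes, with values of -2.29 for Col28a1, -1.42 for Col6a5, -0.79 for Col8a1, -0.75 for Col4a5, -0.74 for Col12a1, -0.74 for Col6a1, -0.73 for Col6a3, -0.59 for Col18a1, -0.57 for Col3a1, -0.53 for Col5a1, -0.43 for Col4a2, -0.32 for Col1a2 and -0.32 for Col4a1. The Col28a1 value is measured against a DMSO day 1 group listed at 0 and so depends on the pseudocount. Calls for Col1a2, Col4a1, Col12a1, Col6a3 and Col6a5 were lost without 1 library. Groups of 2 libraries were not examined for libraries that stand apart.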

How the results depend on the processing

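Of 235 calls of a collagen gene in a comparison, 131 were kept in every alternative that tested the gene and without each library. Setting aside the fits that left out 1 library, 135 were kept in every such alternative. These alternatives include the fit of only the groups compared, which did not use all 28 libraries. Genes averaging under 5 were not tested with the minimum mean of 5, so their calls were not put to that alternative. A fit of only the 4 libraries compared, which has few degrees of freedom, gave 2 calls for pre-p38i on day 1, 3 on day 3 and 3 on day 5 (13, 13 and 16 with all groups), and 7, 12 and 4 for p38i on days 1, 3 and 5 (18, 21 and 16). Leaving out 1 library gave 6 to 12 calls for pre-p38i on day 1. The replicate number as a block changed no count of calls by over 1.5 times (9 against 13 for pre-p38i on day 1). With no filter, most residual variances were 0, so those adjusted p-values are unreliable. Quantile normalization moved the median of all genes by 0.119 and 0.105 for p38i on days 3 and 5 and by -0.211 between MEFs and day 1.

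Signs were compared for the calls and, called or not, for the partner chain genes. Among these, signs turned only for changes near 0 that were not called. Under quantile normalization Col3a1 became 0.0 for pre-p38i on day 1 and 0.0 from day 1 to day 7. Without 1 library at a time, the range was -0.05 to 0.04 for Col3a1 in pre-p38i on day 1, -0.13 to 0.01 for Col6a2 and -0.13 to 0.09 for Col6a3 in pre-p38i on day 3, -0.05 to 0.19 for Col5a1 and -0.03 to 0.13 for Col4a1 in p38i on day 5, -0.04 to 0.09 for Col6a2 and -0.07 to 0.02 for Col5a2 in p38i on day 7, and -0.07 to 0.05 for the change of the pre-p38i difference in Col6a2. The cause was not tested. Depth is unknown and limits genes with values of a few TPM most.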
